A study of Mus musculus with 14 samples.

Results

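The blood vessels of the mouse spinal cord were followed through 34 genes in bulk RNA-seq libraries. Of these, 12 are endothelial surface and signalling genes, 9 belong to the barrier program of central nervous system endothelium, 9 mark pericytes and 4 are contractile genes of vascular smooth muscle. The genes were picked by symbol out of 24116 gene rows, and all 34 were present and were tested. The rule holds no measured value, but the genes were chosen with earlier results of these data known.

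There were 14 libraries, each made from ventral spinal cord pieces of 3 to 5 pooled mice of both sexes that were cut out by laser microdissection. They form 4 ablated lesion, 4 ablated distal, 3 non-ablated lesion and 3 non-ablated distal libraries, named lesion_ablated, distal_ablated, lesion_control and distal_control below, each with the number in its title. Ablated mice were Cx3cr1-CreER :Rosa26-iDTR+/- and non-ablated mice were Cx3cr1-CreER :Rosa26-iDTR-/-. Both genotypes thus carried the Cre, which the Cx3cr1 promoter drives in microglia and in other myeloid cells, and the ablated mice alone carried the toxin receptor that the Cre switches on. All mice were given tamoxifen for 3 days, and lysophosphatidylcholine (LPC), a lipid that strips myelin, was injected into the ventral cord 4 to 6 weeks later. Daily diphtheria toxin was given to all groups until tissue was taken 5 days after LPC. Lesion libraries come from the demyelinated area and distal libraries from uninjured cord. The age labels go up by 1 month a library in title order, 8 to 15 months over the ablated and 2 to 7 months over the non-ablated libraries. A step of this kind is unlikely for pools handled alike, so whether the labels are true ages is not known, and genotype and labelled age cannot be told apart. No label ties a lesion piece to the distal piece of the same mice, and the tests treat all 14 pools as separate samples.

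Endothelial cells of the brain and spinal cord form a barrier: tight junctions seal the gaps between them, transporters carry chosen nutrients across, and vesicle traffic is kept low. Wnt signals from neural cells switch this program on through Lef1-type factors and Foxq1, and pericytes, which sit on the capillary wall and need PDGF signals through Pdgfrb, help to maintain it. Smooth muscle cells around arterioles contract through Acta2 and Myh11. In demyelinated and inflamed tissue the barrier is known to leak, and perivascular cells are known to lay down scar matrix.

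Promoter sequence was looked up for the members because several of them changed together. RefSeq promoter windows of build GRCm38.p6 were found for 25 of the 34 members, and the 250 bases before the start site were searched on both strands for 7 motifs. The windows of Slc2a1 (chr4:119108495-119108744, plus strand) and Mfsd2a (chr4:122961189-122961438, minus strand) are shown because both transporter genes fell in lesions of both genotypes. The window of Anpep (chr7:79848211-79848460, minus strand) is shown because this gene rose most. Capitals mark the GC box GGGCGG (read as CCGCCC on the other strand) and the CCAAT box (read as ATTGG on the other strand).
Slc2a1: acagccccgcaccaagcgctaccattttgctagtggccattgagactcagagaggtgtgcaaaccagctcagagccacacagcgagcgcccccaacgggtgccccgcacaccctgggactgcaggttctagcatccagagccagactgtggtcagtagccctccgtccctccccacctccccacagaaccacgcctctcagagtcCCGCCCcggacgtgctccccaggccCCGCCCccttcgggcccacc
Mfsd2a: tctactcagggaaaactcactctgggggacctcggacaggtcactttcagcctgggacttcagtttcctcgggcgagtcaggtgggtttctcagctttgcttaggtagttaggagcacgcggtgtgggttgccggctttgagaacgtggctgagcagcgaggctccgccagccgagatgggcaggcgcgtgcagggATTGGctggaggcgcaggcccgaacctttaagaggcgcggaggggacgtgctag
Anpep: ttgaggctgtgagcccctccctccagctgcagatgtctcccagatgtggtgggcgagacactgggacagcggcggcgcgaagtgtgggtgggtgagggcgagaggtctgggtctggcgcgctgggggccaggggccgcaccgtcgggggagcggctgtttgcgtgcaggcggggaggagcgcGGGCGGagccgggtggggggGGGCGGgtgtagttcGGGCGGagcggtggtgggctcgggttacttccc
The Slc2a1 window holds 2 GC boxes, the Mfsd2a window 1 CCAAT box and the Anpep window 3 GC boxes. A GC box was found in 13 of the 25 members (52.0%) and in 35.4% of all 27025 genes with a window. CCAAT was found in 6 members (24.0%, against 37.5% of all genes) and the TATA box letters TATAAA in 4 (16.0%, against 14.3%). The letters CAGGAAG, an ETS factor motif, were in the windows of Egfl7, Emcn, Itm2a and Lef1 (16.0% of members, against 12.1% of all genes). GTGGGAA, the RBPJ motif of Notch signalling, was in those of Kdr and Tie1 (8.0%, against 6.18%). CTTTGAT, the TCF/LEF motif of Wnt signalling, was in the Egfl7 windows alone (4.0%, against 3.72%), and a CArG box was in the Lef1 windows alone (4.0%, against 1.62%). These matches overlapped no other searched motif in the members, and a match is a description of the letters, not of a factor bound there.

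The table holds read counts divided by DESeq2 size factors, called normalized counts here. Whole reads were recovered from it, 23601763 to 30844575 per library, with at least 1 read in 15949 to 17945 genes. Tests were run with limma on log2(normalized count + 1) over 15637 genes that reached 10 normalized counts in at least 3 libraries, and a gene is said to rise or fall where its adjusted p, by Benjamini-Hochberg over all tested genes, was under 0.05. Fold changes are given as log2 differences on that scale, ± SE, which understates the change of low genes. The ablation check Cx3cr1 had 155 to 336 normalized counts in ablated and 3657 to 4717 in non-ablated lesions, and 21.7 to 128 in ablated and 510.1 to 1361 in non-ablated distal tissue. Of 7 tested microglia markers, 4 passed as lower in ablated than in non-ablated lesions, and 2 in distal tissue. The summed count of the microglia list overlapped in distal tissue. It was 27224 to 168224 in ablated libraries, highest in distal_ablated 9, and 49109 to 97651 in non-ablated ones. On the scale of normalized counts, library distal_ablated 9 stood apart within its group in Kdr, Tek, Tie1 and Slco1a4. Library distal_control 5 did so in the contractile genes. Their summed count was 12545 there and 1195 and 1431 in the other non-ablated distal libraries. Counts and medians are therefore also given without both libraries together where they move, as are the values of the genes these libraries touch most. All 34 members had reads in every library, except that Higd1b is listed at 0 in lesion_control 6 and Des in distal_ablated 9.

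In lesions the barrier genes Slco1a4, Slc2a1 and Mfsd2a fell in both genotypes, while the efflux pump gene Abcb1a passed in neither. General endothelial markers mostly did not pass the test, and pericyte genes split. Of the 34 members, 7 were called in ablated mice, 2 higher and 5 lower, a share of 20.6% where 29.9% of all tested genes were called. In non-ablated mice 15 were called, 3 higher and 12 lower, a share of 44.1% where 28% of all tested genes were called. By direction, the called-lower share of members was 14.7% in ablated mice (13.8% of all genes) and 35.3% in non-ablated mice (13.3% of all genes). The called-higher share was 5.88% in ablated mice (16.1% of all genes) and 8.82% in non-ablated mice (14.7% of all genes). The median change was -0.17 in ablated mice, with 0.05 over all genes, and -0.61 in non-ablated mice, with 0.07 over all genes. Leaving out single libraries gave medians of -0.23 (without lesion_ablated 10) to -0.08 (without distal_ablated 7) in ablated mice. In non-ablated mice they gave -1.05 (without distal_control 1) to -0.55 (without distal_control 5), and -1.04 without lesion_control 6. In ablated mice every lesion library was above every distal one in 5 members (16.3% of all genes) and below in 6 (13.7%). In non-ablated mice it was above in 3 (26.1% of all genes) and below in 13 (23.1%). Ly6c1, Slco1a4, Slc2a1, Mfsd2a and Kcnj8 fell in both genotypes and Anpep rose in both. The tissue comes whole, so fewer cells of a type and less RNA per cell cannot be told apart. Without distal_control 5 and distal_ablated 9 together, 10 members were called in ablated mice (median -0.09) and 14 in non-ablated mice (median -0.55). The shares of all genes above are from all 14 libraries. Those without both libraries are not given here or below, so counts in that setting have no share beside them. Leaving out single libraries gave 6 to 9 in ablated mice and 8 to 15 in non-ablated mice, with 8 without lesion_control 6. Over the same settings 3653 to 4919 of all genes were called in ablated and 3053 to 5358 in non-ablated mice.

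Slco1a4, an organic anion and thyroid hormone transporter of barrier endothelium, had 981, 2275, 1859 and 1751 normalized counts in ablated lesions (libraries 8, 10, 12 and 14), against 5190.03, 22180.2, 6832 and 6187 in ablated distal tissue (libraries 7, 9, 11 and 13). In non-ablated mice it had 698, 933 and 1217 in lesions (libraries 2, 4 and 6), against 3642, 4217 and 4147 in distal tissue (libraries 1, 3 and 5). Every lesion library was below every distal library of its genotype, and distal_ablated 9 was far above the rest. The gene fell by 2.35 ± 0.39 in ablated mice (adjusted p = 0.000388) and fell by 2.11 ± 0.45 in non-ablated mice (adjusted p = 0.00296).

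Mfsd2a, the lipid transporter that keeps vesicle traffic across the endothelium low, had 317, 477, 277 and 273 normalized counts in ablated lesions, against 1169, 1412, 882 and 952 in ablated distal tissue. Non-ablated lesions had 212, 179 and 146, against 767, 1039 and 1565 in non-ablated distal tissue. The groups were apart in both genotypes, and the non-ablated lesions lay below all ablated ones. It fell by 1.73 ± 0.28 in ablated mice (adjusted p = 0.000317) and fell by 2.60 ± 0.32 in non-ablated mice (adjusted p = 4.56e-05).

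Slc2a1, the glucose transporter GLUT1, had 3221, 2461, 2736 and 2524 normalized counts in ablated lesions, against 4313, 6649, 4229 and 5111 in ablated distal tissue. It had 2148, 2026 and 2025 in non-ablated lesions, against 4491, 5507 and 6007 in non-ablated distal tissue. Lesion and distal libraries did not overlap in either genotype, and the non-ablated lesions were nearly alike. The gene fell by 0.88 ± 0.18 in ablated mice (adjusted p = 0.00182) and fell by 1.36 ± 0.21 in non-ablated mice (adjusted p = 0.000218). Slco1a4, Mfsd2a and Slc2a1 kept these calls under each of the 25 other settings tried. Astrocytes, which also make some GLUT1, lost marker signal in the same libraries: 6 of 6 astrocyte markers fell in lesions of each genotype. Their summed count was 70997 to 120757 in ablated lesions and 301463 to 377898 in ablated distal tissue, and 53375 to 70856 in non-ablated lesions and 261299.9 to 373431 in non-ablated distal tissue, with no marker at 0. Their part in the Slc2a1 result was not tested.

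Of the other barrier genes Itm2a alone passed the test, and in non-ablated mice alone. Itm2a, a membrane protein of barrier endothelium, had 1232, 1826 and 2406 normalized counts in non-ablated lesions, against 3995, 2987 and 8316 in non-ablated distal tissue, with no overlap. It fell by 1.40 ± 0.37 there (adjusted p = 0.0104), a call lost without lesion_control 2 (adjusted p = 0.0563). In ablated mice its values overlapped, at 3630.4, 3979, 3256 and 2477 in lesions, against 3644, 2964, 4015 and 5856 in distal tissue (-0.28 ± 0.32, adjusted p = 0.553).

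Cldn5, the main claudin of the tight junction, had 1279.9, 1333, 1014 and 903 normalized counts in ablated lesions, against 2329.8, 1076, 708 and 708 in ablated distal tissue. Non-ablated lesions had 488, 662 and 768, against 722, 1026 and 2357 in non-ablated distal tissue. Lesion and distal values overlapped in both genotypes, with 0.08 ± 0.40 in ablated mice (adjusted p = 0.911) and -0.94 ± 0.46 in non-ablated mice (adjusted p = 0.154). Occludin (Ocln), the efflux pump gene Abcb1a and the transcription factor genes Lef1 and Foxq1 also passed in neither genotype. Their changes were between -0.36 and 0.71 in ablated mice and between -0.56 and -0.26 in non-ablated mice. With both distal_control 5 and distal_ablated 9 left out, Abcb1a was at -0.10 in ablated and -0.74 in non-ablated mice. In this count 3 of the 9 barrier genes fell in ablated mice and 4 of 9 in non-ablated mice, and none rose. When distal_control 5 and distal_ablated 9 were both left out these counts were again 3 and 4.

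The 3 transporters also lay low beside the endothelial surface genes of the same library. The mean log2 level of Slco1a4, Slc2a1 and Mfsd2a minus that of the 12 surface genes was 1.02 to 1.39 in ablated lesions, against 2.36 to 3.68 in ablated distal tissue. It was 0.42 to 1.16 in non-ablated lesions, against 2.01 to 2.50 in non-ablated distal tissue. The lesion and distal ranges did not meet in either genotype; this is a description, since the 3 genes were put together after their values were seen. Over all 9 barrier genes the same difference was smaller, at -0.12 to 0.40 in ablated lesions, against 0.55 to 1.03 in ablated distal tissue, and at -0.42 to 0.21 in non-ablated lesions, against 0.40 to 0.64 in non-ablated distal tissue.

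**Figure D1:**
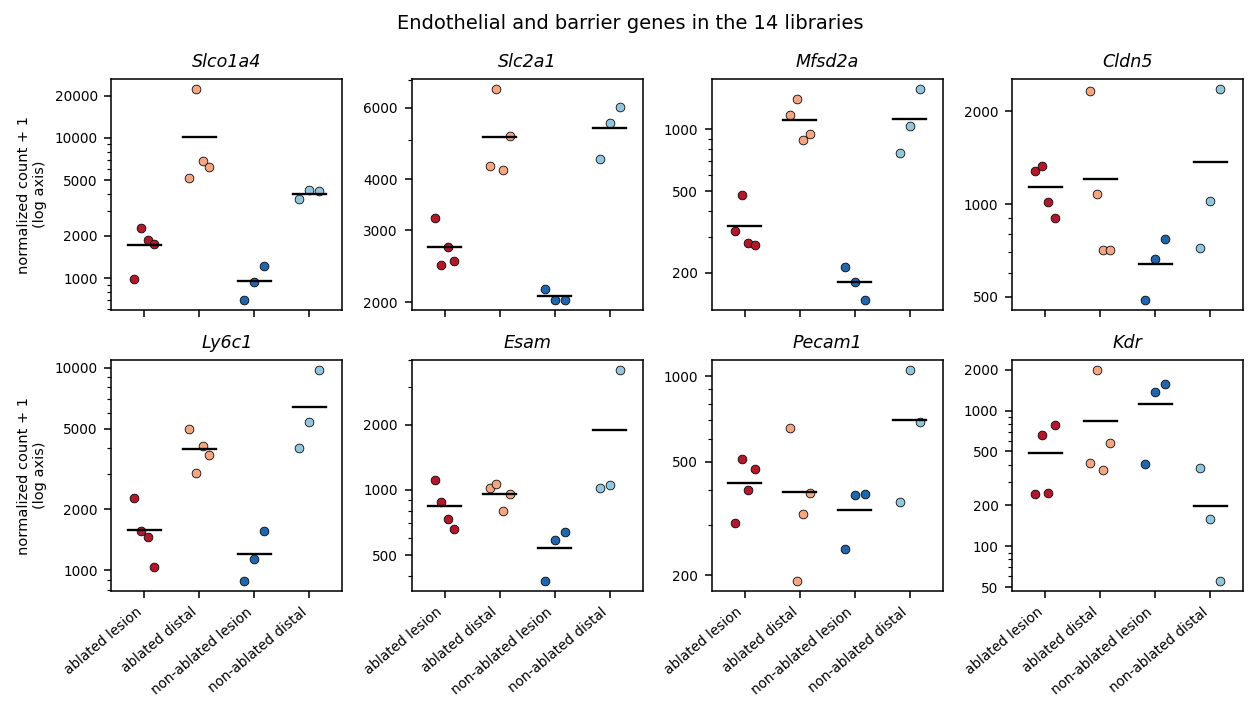
Normalized count + 1 (log axis) of Slco1a4, Slc2a1, Mfsd2a, Cldn5, Ly6c1, Esam, Pecam1 and Kdr in each library. Ablated lesion, ablated distal, non-ablated lesion and non-ablated distal tissue run from left to right. The other endothelial surface and barrier genes are not drawn. Dots are libraries and lines are group means. Slco1a4, Mfsd2a and Slc2a1 lie lower in every lesion library than in every distal library of the same genotype.

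Among the 12 endothelial surface genes, Ly6c1 alone fell in both genotypes. Ly6c1, a surface protein of capillary endothelium in mice, had 2283, 1569.5, 1467 and 1041 normalized counts in ablated lesions, against 5009.6, 3035, 4095 and 3712 in ablated distal tissue. Non-ablated lesions had 887, 1139.6 and 1568, against 4023, 5393 and 9728 in non-ablated distal tissue. No lesion library reached a distal one, and the gene fell by 1.35 ± 0.30 in ablated mice (adjusted p = 0.00337) and fell by 2.35 ± 0.35 in non-ablated mice (adjusted p = 0.000174). Ly6c1 has a near-identical neighbour, Ly6c2, which is made by monocytes, and how reads were split between them is not given in the sources used here.

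Esam, an adhesion molecule of endothelial junctions, had 379, 587 and 639 normalized counts in non-ablated lesions, against 1015, 1056 and 3576 in non-ablated distal tissue. The lesion libraries were all below, distal_control 5 was highest, and Esam fell by 1.58 ± 0.41 (adjusted p = 0.00956). Without distal_control 5 and distal_ablated 9 together it fell by 0.99 (adjusted p = 0.0167). In ablated mice it had 1107, 881, 730.2 and 659 in lesions, against 1018, 1064, 801 and 960 in distal tissue, which overlap (-0.21 ± 0.35, adjusted p = 0.709).

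Kdr, the main VEGF receptor of endothelium, was the surface gene that rose in non-ablated lesions. It had 403, 1381 and 1575 normalized counts there, against 378, 159 and 54.7 in non-ablated distal tissue. The lowest lesion library and the highest distal one nearly touched, and the change was 2.67 ± 0.79 (adjusted p = 0.0211). The call was lost without lesion_control 4 (adjusted p = 0.0812), lesion_control 6 (0.0875) or distal_control 5 (0.0919). In ablated mice Kdr had 240.4, 664, 244 and 786 in lesions, against 407, 1981, 366 and 573 in distal tissue, with distal_ablated 9 on top (-0.61 ± 0.69, adjusted p = 0.549). With both distal_control 5 and distal_ablated 9 left out, Kdr was at -0.07 in ablated mice (adjusted p = 0.934) and 1.96 in non-ablated mice (0.0347).

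Cdh5, the cadherin of endothelial junctions, had 617, 726, 678 and 620.1 normalized counts in ablated lesions, against 586, 124, 320.3 and 307 in ablated distal tissue. All lesion libraries were above all distal ones, though the change of 1.18 ± 0.43 narrowly missed the threshold (adjusted p = 0.0508). It passed without distal_ablated 7 (adjusted p = 0.0137), distal_control 1 (0.0476) or distal_control 5 (0.0378). Non-ablated lesions had 426, 911 and 773, against 238, 325 and 628 in non-ablated distal tissue, which overlap (0.87 ± 0.49, adjusted p = 0.215); without distal_control 5 and distal_ablated 9 together the change was 1.27 (adjusted p = 0.0161).

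Pecam1, the adhesion molecule CD31, had 304, 511, 397 and 469.6 normalized counts in ablated lesions, against 659, 190.4, 327 and 387 in ablated distal tissue. It had 246, 381 and 384 in non-ablated lesions, against 359, 1047 and 688 in non-ablated distal tissue. The groups overlapped in both genotypes, and the changes were 0.22 ± 0.39 in ablated mice (adjusted p = 0.727) and -0.95 ± 0.45 in non-ablated mice (adjusted p = 0.142). Without distal_control 1 the change in non-ablated mice was -1.36 (adjusted p = 0.0472).

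The other surface genes passed in neither genotype. These are the sialomucin gene Emcn, the VEGF receptor Flt1, the angiopoietin receptor Tek and its partner Tie1, the TGF-beta co-receptor Eng, the secreted protein gene Egfl7 and the clotting factor Vwf. Their changes ran from -1.03 (Egfl7) to 1.17 (Vwf) in ablated mice and from -1.10 (Egfl7) to -0.16 (Eng) in non-ablated mice. When distal_control 5 and distal_ablated 9 were both left out, the ablated values were -0.48 for Egfl7 and 0.17 for Vwf, and the non-ablated values were -0.63 for Egfl7 and 0.22 for Eng. Flt1 had 1339.97, 1442, 1473 and 1402 normalized counts in ablated lesions, against 3227, 778, 2127 and 2338 in ablated distal tissue. The distal value of 778 was that of distal_ablated 9, and without this library Flt1 fell by 0.84 (adjusted p = 0.0499). In sum, 1 of the 12 surface genes was called in ablated mice, lower, and 3 in non-ablated mice, 1 higher and 2 lower. Without distal_control 5 and distal_ablated 9 together, 2 were lower in ablated mice, and 2 were higher and 2 lower in non-ablated mice.

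Of the 9 pericyte genes, Kcnj8 fell and Anpep rose in both genotypes. Kcnj8, the pore subunit of a potassium channel that responds to ATP, had 57.6, 43.1, 37.4 and 56.4 normalized counts in ablated lesions, against 482, 332, 198 and 229 in ablated distal tissue. Non-ablated lesions had 43.6, 58.2 and 28.8, against 101, 92.6 and 651 in non-ablated distal tissue. No lesion library reached a distal one, and distal_control 5 was far above its group. Kcnj8 fell by 2.58 ± 0.56 in ablated mice (adjusted p = 0.00292), under each of the 25 other settings too. In non-ablated mice it fell by 2.10 ± 0.65 (adjusted p = 0.0261). That call was lost without distal_control 5 (-1.19, adjusted p = 0.0998), lesion_control 2 (adjusted p = 0.0629) or lesion_control 6 (0.0984), and when the spread was taken from these groups alone (0.0802). It was also lost without distal_control 5 and distal_ablated 9 together (-1.19, adjusted p = 0.075).

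Abcc9, the regulatory subunit of the same channel, lies 16248 bases from Kcnj8 on chromosome 6. It had 169, 147 and 64.0 normalized counts in non-ablated lesions, against 823, 548 and 218 in non-ablated distal tissue. The ranges were apart, and Abcc9 fell by 1.97 ± 0.60 (adjusted p = 0.0239). The call was lost without lesion_control 6 (adjusted p = 0.112), distal_control 1 (0.100) or distal_control 3 (0.0714). In ablated mice it had 254, 119.8, 200.2 and 215 in lesions, against 272, 83.5, 335 and 274 in distal tissue, which overlap (-0.17 ± 0.52, adjusted p = 0.847).

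Rgs5, a G-protein regulator of brain pericytes, had 824, 1198 and 651 normalized counts in non-ablated lesions, against 2264, 2334 and 2631 in non-ablated distal tissue. The groups were well apart, and Rgs5 fell by 1.48 ± 0.33 (adjusted p = 0.00358), under each other setting too. Ablated lesions had 1068, 2100.4, 1828 and 1316, against 2897, 1385, 2181.9 and 2815 in ablated distal tissue, where distal_ablated 9 lay among the lesions (-0.55 ± 0.28, adjusted p = 0.164). Without distal_ablated 9 the change in ablated mice was -0.78 (adjusted p = 0.0345).

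Notch3, the Notch receptor of mural cells, had 713, 531, 539.96 and 273 normalized counts in ablated lesions, against 1583, 930.5, 768 and 725 in ablated distal tissue. Non-ablated lesions had 255, 239 and 264, against 616, 339 and 1027 in non-ablated distal tissue. Lesions were below distal tissue in both genotypes with no overlap. The change was -0.97 ± 0.37 in ablated mice (adjusted p = 0.0647) and -1.24 ± 0.43 in non-ablated mice (adjusted p = 0.0439). Both lie close to the threshold. The second was lost without lesion_ablated 10 (adjusted p = 0.0573), lesion_ablated 12 (0.0560), distal_ablated 11 (0.05004), lesion_control 2 (0.0978), lesion_control 4 (0.114), lesion_control 6 (0.0924), distal_control 1 (0.0934) or distal_control 5 (0.175). A library of the other genotype counts here because the spread is estimated over all groups. The call was also lost with no low-value filter or with the spread of these groups alone (0.0521 each). Without distal_control 5 and distal_ablated 9 together the change in non-ablated mice was -0.85 (adjusted p = 0.148). The first was gained without lesion_ablated 8 (0.0454), distal_control 3 (0.0420) or distal_control 5 (0.0423), and with DESeq2 (0.0383) or array weights (0.0388).

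Pdgfrb, the PDGF receptor that pericytes need and that fibroblasts also make, rose in non-ablated lesions. It had 862, 1182 and 1248 normalized counts there, against 410.3, 543 and 712 in non-ablated distal tissue. The groups did not overlap and the change was 1.00 ± 0.30 (adjusted p = 0.0241). It was lost without lesion_control 4 (adjusted p = 0.0849), lesion_control 6 (0.0911), distal_control 1 (0.0955) or distal_control 3 (0.0544). In ablated mice Pdgfrb had 1093, 761, 1298 and 931 in lesions, against 742, 1088, 609.6 and 597 in distal tissue, which overlap through distal_ablated 9 (0.44 ± 0.26, adjusted p = 0.230). With both distal_control 5 and distal_ablated 9 left out it rose there by 0.63 (adjusted p = 0.0482).

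Anpep, the aminopeptidase CD13 of pericytes, fibroblasts and myeloid cells, had the widest gap of the 34. It had 25537, 20074, 15974 and 32119 normalized counts in ablated lesions, against 790.4, 10.0, 139.6 and 657 in ablated distal tissue. Non-ablated lesions had 13957, 14756 and 15482, against 16.97, 801 and 15.3 in non-ablated distal tissue. Lesion libraries were high in both genotypes, while distal libraries of 1 genotype differed among themselves by more than an order of magnitude. Anpep rose by 7.07 ± 1.27 in ablated mice (adjusted p = 0.000715) and by 7.90 ± 1.47 in non-ablated mice (adjusted p = 0.00106), under each other setting too. The size depended on the low distal libraries. It was 5.76 (without distal_ablated 9) to 7.81 (without distal_ablated 7) over the other settings in ablated mice. In non-ablated mice it was 5.67 (with edgeR) to 9.75 (without distal_control 3), and 6.94 without distal_control 5.

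Fibroblast markers were high in the same lesion libraries as Anpep and Pdgfrb. Of 8 fibroblast markers, 7 rose in each genotype, Pdgfra being the exception. Their summed count was 35214 to 93684 in ablated lesions, against 4366 to 7295 in ablated distal tissue, and 43125 to 79767 in non-ablated lesions, against 4072 to 8866 in non-ablated distal tissue. None of the 8 was at 0 in a lesion library. Of 5 leptomeningeal markers 4 were tested, of which 2 rose in ablated and 1 in non-ablated lesions. The summed count of the 5 was 315 to 1075 in ablated lesions, against 10.0 to 243 in ablated distal tissue, and 479 to 1331 in non-ablated lesions, against 51.9 to 126 in non-ablated distal tissue. Of 7 tested microglia markers, 3 rose in each genotype (Cx3cr1, Fcrls and Csf1r), and 2 fell in ablated lesions. The summed count of that list, in which P2ry12 was at 0, was 27036 to 70288 in ablated lesions, against 27224 to 168224 in ablated distal tissue, and 112332 to 141639 in non-ablated lesions, against 49109 to 97651 in non-ablated distal tissue. The part of these lists in the Anpep and Pdgfrb results was not tested.

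Higd1b, a small mitochondrial protein gene known from pericytes, was low throughout. It had 8.08, 25.1 and 0 normalized counts in non-ablated lesions, against 68.9, 29.7 and 80.1 in non-ablated distal tissue, with the lesions lower. The change of -3.17 ± 0.93 (adjusted p = 0.0203) depends on the value listed at 0. It was lost without lesion_control 6 (-1.86, adjusted p = 0.0852), distal_control 1 (0.0586) or distal_control 5 (0.0612), with edgeR (0.0702), with array weights (0.135) and with the spread of these groups alone (0.0769). In ablated mice Higd1b had 25.0, 27.9, 25.8 and 23.5 in lesions, against 39.2, 53.5, 14.6 and 26.8 in distal tissue, which overlap (-0.24 ± 0.81, adjusted p = 0.864).

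The matrix protein gene Vtn and the adhesion molecule Mcam passed in neither genotype. The difference of Vtn was 0.24 ± 0.44 in ablated mice (adjusted p = 0.728) and -0.48 ± 0.51 in non-ablated mice (adjusted p = 0.529). Mcam had 649.9, 931, 879 and 867 normalized counts in ablated lesions, against 406, 423, 693 and 621 in ablated distal tissue, with 1 lesion library below the highest distal one (0.66 ± 0.30, adjusted p = 0.109). Counted over the role, 1 pericyte gene rose and 1 fell in ablated mice, and 2 rose and 5 fell in non-ablated mice. When distal_control 5 and distal_ablated 9 were both left out, 2 rose and 2 fell in ablated mice, and 2 rose and 3 fell in non-ablated mice. Without lesion_control 6, 1 rose and 1 fell in non-ablated mice, and without distal_control 1, 1 rose and 2 fell.

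**Figure D2:**
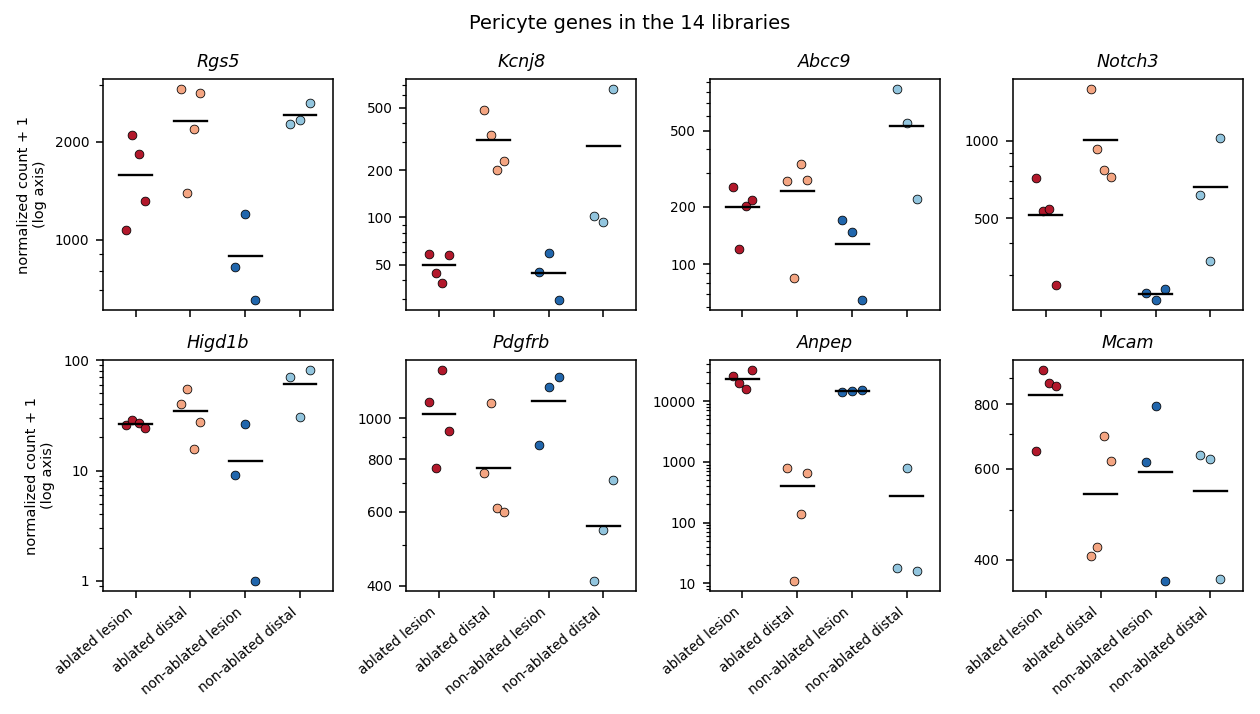
Normalized count + 1 (log axis) of the pericyte genes other than Vtn in each library. Ablated lesion, ablated distal, non-ablated lesion and non-ablated distal tissue run from left to right. Dots are libraries and lines are group means. Kcnj8 and Notch3 are lower and Anpep higher in every lesion library than in every distal library of the same genotype. In non-ablated mice alone, Rgs5, Abcc9 and Higd1b are lower and Pdgfrb is higher in every lesion library than in every distal library.

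The 4 contractile genes varied widely within groups. Des, the muscle intermediate filament desmin, had 81.4, 60.7, 55.7 and 86.2 normalized counts in ablated lesions, against 13.1, 0, 23.7 and 30.4 in ablated distal tissue. Lesions were above distal tissue, and the change was 2.79 ± 0.93 (adjusted p = 0.0340). The call was lost without distal_ablated 9 (1.67, adjusted p = 0.0522), lesion_ablated 8 (0.0703), lesion_ablated 10 (0.0590), lesion_ablated 12 (0.0568) or lesion_ablated 14 (0.0814), with edgeR (0.0768) and with the spread of these groups alone (0.0654). Non-ablated lesions had 55.0, 61.1 and 36.3, against 37.9, 5.51 and 35.6 in non-ablated distal tissue (1.27 ± 1.07, adjusted p = 0.420).

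Myh11, the smooth muscle myosin heavy chain, had 10.5, 58.9 and 48.0 normalized counts in non-ablated lesions, against 78.9, 130.02 and 1962 in non-ablated distal tissue. The lesions were lower, and distal_control 5 was far above the other distal libraries. The change was -3.08 ± 1.04 (adjusted p = 0.0394), and -1.66 without distal_control 5 (adjusted p = 0.170). The call was lost there and without distal_control 5 and distal_ablated 9 together (-1.66, adjusted p = 0.0843). It was also lost without lesion_control 2 (-2.34, adjusted p = 0.163), lesion_control 4 (0.0512), lesion_control 6 (0.0622), lesion_ablated 10 (0.0516), lesion_ablated 12 (0.0515) or lesion_ablated 14 (0.0507), with array weights (0.0537) and with the spread of these groups alone (0.0995). In ablated mice Myh11 had 169, 141, 131 and 97.2 in lesions, against 247, 68.5, 605 and 162 in distal tissue (-0.61 ± 0.90, adjusted p = 0.663).

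Acta2, the smooth muscle actin, had 1919, 1169.6, 1170.5 and 992 normalized counts in ablated lesions, against 1715, 668, 2007 and 408 in ablated distal tissue. It had 925, 2538 and 1246 in non-ablated lesions, against 414, 608 and 2571 in non-ablated distal tissue. The groups overlapped, with 0.37 ± 0.58 in ablated mice (adjusted p = 0.685) and 0.72 ± 0.67 in non-ablated mice (adjusted p = 0.469). Tagln, an actin-binding protein of smooth muscle, had 2174, 1764 and 2320.5 in non-ablated lesions, against 664, 688 and 7977 in non-ablated distal tissue. It did not pass there (0.43 ± 0.71, adjusted p = 0.702), and it rose without distal_control 5 (1.62, adjusted p = 0.00796). In ablated mice its difference was 0.69 ± 0.62 (adjusted p = 0.445). The same distal library was high in red blood cell markers, with a summed count of 2683, against 105 and 472 in the other non-ablated distal libraries. That list holds 5 genes, of which Hbb-bt and Hba-a1 had no row and Alas2 was at 0. Its part in the contractile results was not tested.

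**Figure D3:**
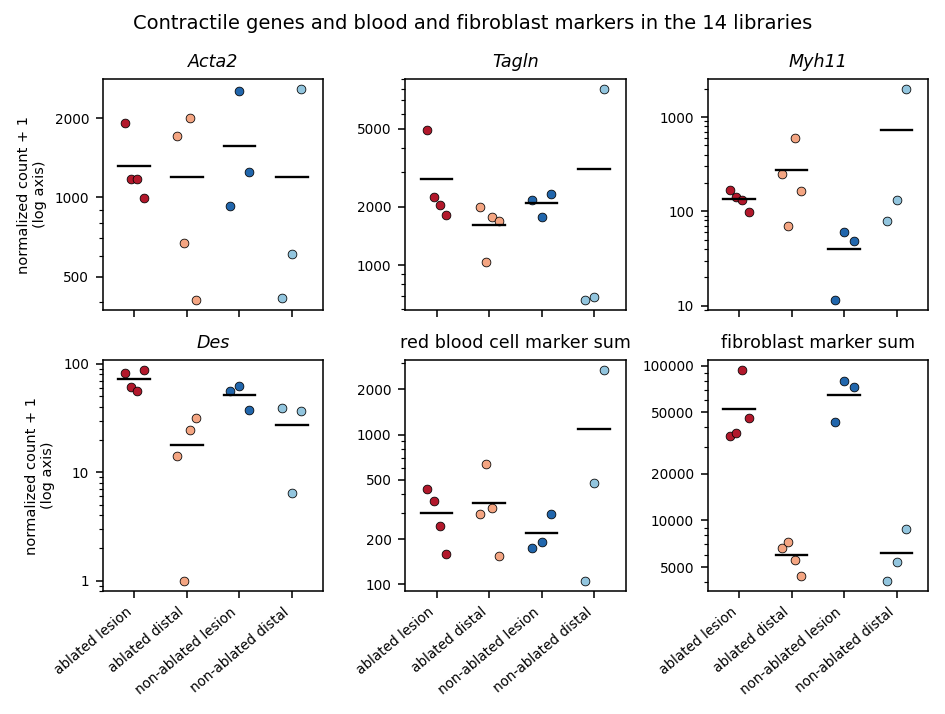
Normalized count + 1 (log axis) of the 4 contractile genes in each library, and of the summed red blood cell and fibroblast markers. Ablated lesion, ablated distal, non-ablated lesion and non-ablated distal tissue run from left to right. Dots are libraries and lines are group means. One non-ablated distal library holds the highest Acta2, Tagln and Myh11 values of all 14 libraries.

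**Figure D4:**
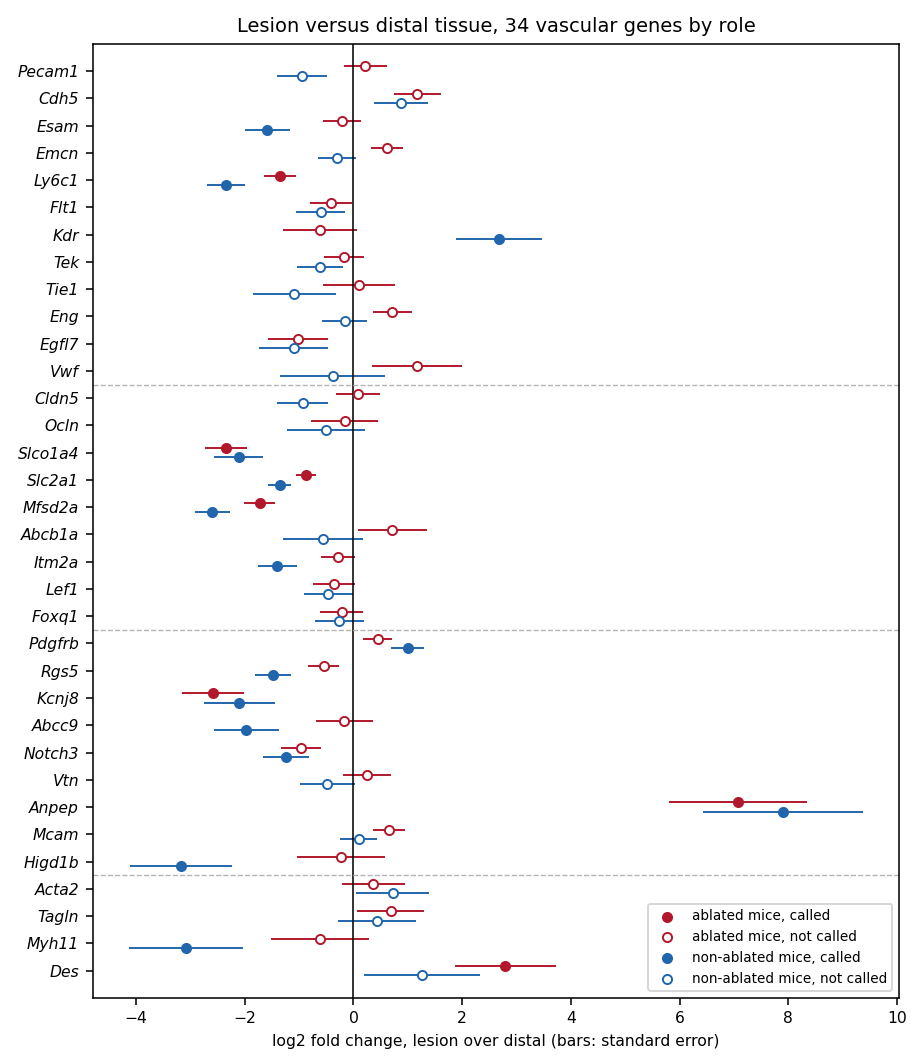
Lesion minus distal log2 difference (± SE) of the 34 genes by role, in ablated and in non-ablated mice. Filled points passed the threshold: 7 genes in ablated mice and 15 in non-ablated mice, of which 6 are shared with the same sign.

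The wider vascular pathways were read from 10 lists with 126 genes, of which 121 were tested. Angpt2, Bsg, Ramp2, P2ry14 and Pln are listed at 0 throughout. The gene models used for counting are not stated, so a 0 in every library is not read as absence of the transcript. In ablated mice 24 rose and 15 fell in lesions, with a median of 0.40. In non-ablated mice 21 rose and 18 fell, with a median of -0.02. Without distal_control 5 and distal_ablated 9 together, 26 rose and 17 fell in ablated lesions (median 0.22), and 28 rose and 21 fell in non-ablated lesions (median 0.26). In that setting 4 vascular ligands rose and 4 fell in non-ablated lesions, where 4 partners of the contractile genes rose and 0 activation genes fell. In ablated lesions 2 junction partners and 2 transporters rose, 1 further endothelial gene rose, and 2 arterial and venous genes and 2 further mural genes fell. The number of pathway genes that rose in non-ablated lesions was 13 without lesion_control 4, 10 without lesion_control 6 and 14 without distal_control 1. The counts from all libraries, and those of the single lists below, are to be read against the shares of all tested genes. Shares for the settings with libraries left out are not given. Of all tested genes, 16.1% rose and 13.8% fell in ablated lesions (29.9% either way). In non-ablated lesions 14.7% rose and 13.3% fell (28% either way).

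Basement membrane genes of the vessel wall moved in both directions. Of 10 such genes, 5 rose and 1 fell in ablated lesions (median 1.39), and 6 rose and 1 fell in non-ablated lesions (median 1.90). Without distal_ablated 9 the median in ablated mice was 0.92. The gene that fell in both, Sparc, a matrix glycoprotein that several cell types secrete, is also the most abundant. It had 22522 to 39386 normalized counts in ablated lesions, against 41052 to 53850.3 in ablated distal tissue, and 28345 to 31586 in non-ablated lesions, against 42296 to 59587 in non-ablated distal tissue. The summed count of all 10 genes was not higher in lesions. It was 35929 to 58176 in ablated lesions, against 48104 to 61311 in ablated distal tissue, and 38094 to 47757 in non-ablated lesions, against 48038 to 65849 in non-ablated distal tissue. Without Sparc, the sum of the other 9 was 10326 to 18789.8 in ablated lesions, against 3592 to 7460.4 in ablated distal tissue, and 9749 to 16171 in non-ablated lesions, against 5742 to 6567 in non-ablated distal tissue. Col4a1, the main collagen IV chain, had 2419, 2706, 3709.9 and 3602 normalized counts in ablated lesions, against 338, 129, 389 and 378 in ablated distal tissue. Non-ablated lesions had 2678, 3691 and 4075, against 301, 467 and 1454 in non-ablated distal tissue. No distal library reached a lesion library. Col4a1 rose by 3.43 ± 0.44 in ablated mice and by 2.54 ± 0.51 in non-ablated mice. The laminin gene Lama4 rose by 1.55 ± 0.30 in ablated mice and by 2.51 ± 0.34 in non-ablated mice. Without lesion_control 6 or distal_control 1 the number of matrix genes that rose in non-ablated lesions was 3. The number that fell was 0 in ablated lesions without lesion_ablated 14 or distal_ablated 7, and 0 in non-ablated lesions without lesion_control 2 or distal_control 3. Fibroblasts make these collagens too, and the part of the fibroblast signal given above was not tested.

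Mural genes beyond the 9 again split. Art3, an ectoenzyme gene found in mouse brain pericytes, had 129, 175, 159 and 113 normalized counts in ablated lesions, against 3678, 2788, 1471 and 1909.8 in ablated distal tissue, and 119, 74.7 and 81.1 in non-ablated lesions, against 2993, 2638 and 2312 in non-ablated distal tissue. The lesion and distal values were far apart, and Art3 fell by 4.02 ± 0.29 in ablated mice and fell by 4.86 ± 0.34 in non-ablated mice. Cspg4, the proteoglycan NG2 of pericytes and of oligodendrocyte precursors, had 2659.9, 2598 and 2229 in non-ablated lesions, against 550.1, 356 and 299 in non-ablated distal tissue, and rose by 2.68 ± 0.38. In all, 4 of 11 tested genes of this list rose and 1 fell in ablated lesions, and 3 rose and 2 fell in non-ablated lesions. Single libraries moved these counts: 1 rose in ablated lesions without lesion_ablated 10, lesion_ablated 12, lesion_ablated 14 or lesion_control 4, 2 rose without lesion_ablated 8, any distal_ablated library or lesion_control 2, and 1 rose in non-ablated lesions without lesion_control 4, lesion_control 6 or distal_control 1. Of 10 tested partners of the contractile genes, 2 fell in each genotype and none rose, among them the filament protein gene Synm (-1.59 ± 0.21 in ablated and -2.04 ± 0.24 in non-ablated mice). Astrocyte markers fell in the same libraries, and their part in the Synm result was not tested. In ablated lesions 1 fell without lesion_ablated 8, lesion_ablated 12, distal_ablated 7, distal_ablated 11, distal_ablated 13 or lesion_control 4, and 1 rose without distal_ablated 7 or distal_ablated 9. In non-ablated lesions 1 rose without distal_ablated 9, distal_ablated 13 or lesion_control 2, and 2 rose without distal_control 5.

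Genes of activated endothelium were mostly positive in ablated lesions, where 5 of 15 rose, 1 fell and the median was 1.29. In non-ablated lesions 4 rose and 1 fell, with a median of 0.43. That median was -0.0026 without distal_control 1, 0.26 without lesion_control 6 and 0.93 without distal_control 5. Esm1, a tip cell proteoglycan, rose by 3.22 ± 0.57 in ablated and by 2.97 ± 0.66 in non-ablated mice, with distal levels of 8.9 normalized counts or less. Pdpn, which lymphatic endothelium, fibroblasts and reactive astrocytes also make, rose by 1.79 ± 0.33 in ablated and by 1.64 ± 0.38 in non-ablated mice. Icam1, a leukocyte adhesion molecule, rose in non-ablated lesions (1.69 ± 0.48), a call lost without distal_control 1 (adjusted p = 0.0780), lesion_control 4 (0.0523) or lesion_control 6 (0.0676). The number of activation genes that rose in non-ablated lesions was 2 without lesion_control 4 or lesion_control 6. The number that fell was 0 in ablated lesions without lesion_ablated 8 or lesion_ablated 12, and in non-ablated lesions 0 without lesion_control 2, lesion_control 6, distal_control 3 or distal_control 5 and 2 without distal_control 1.

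Of 15 genes of the Wnt barrier pathway, 1 rose and 3 fell in ablated lesions, and 1 rose and 2 fell in non-ablated lesions. The ligand Norrin (Ndp) had 145, 183, 164.5 and 132 normalized counts in ablated lesions, against 557, 1181, 558.5 and 609 in ablated distal tissue, and 107, 96.3 and 75.7 in non-ablated lesions, against 514, 545 and 351 in non-ablated distal tissue. All lesions lay below all distal libraries. Ndp fell by 2.14 ± 0.30 in ablated and fell by 2.32 ± 0.35 in non-ablated mice. The Norrin co-receptor Tspan12 fell by 1.15 ± 0.22 in ablated and fell by 2.03 ± 0.25 in non-ablated mice. Ctnnb1, the gene of beta-catenin, rose by 1.17 ± 0.21 in ablated and 1.19 ± 0.25 in non-ablated mice. In ablated lesions 2 rose and 4 fell without distal_ablated 7, 2 rose without distal_ablated 11 and 3 rose without distal_ablated 13. Ndp is made by astrocytes, whose markers fell in the same libraries as given above.

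Junction partners fell where they passed, with 1 exception. In ablated lesions 2 of 10 fell and 1 rose, and in non-ablated lesions 3 fell. The adhesion molecule gene Jam3, which oligodendrocytes also express, fell by 1.499 ± 0.197 in ablated and fell by 1.66 ± 0.23 in non-ablated mice. F11r, the junctional adhesion molecule A gene, rose by 2.18 ± 0.43 in ablated lesions. Without distal_ablated 13, 2 rose in ablated lesions, and without distal_ablated 9, 1 rose in non-ablated lesions. The 6 oligodendrocyte markers fell in lesions of both genotypes. Their summed count was 300409 to 404866 in ablated lesions, against 1883015 to 2613379.8 in ablated distal tissue, and 204309 to 317055 in non-ablated lesions, against 1922039.7 to 2480029 in non-ablated distal tissue, with no marker at 0. Their part in the Jam3 result was not tested.

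Arterial and venous genes were mixed. Unc5b, a netrin receptor of arterial endothelium that other neural cells also express, had 337, 334, 306 and 247 normalized counts in ablated lesions, against 2145, 1567, 1193 and 1882 in ablated distal tissue. It had 293, 244 and 230.4 in non-ablated lesions, against 2159, 2015 and 1745 in non-ablated distal tissue. Lesion values were all far below distal ones, with changes of -2.44 ± 0.22 in ablated and -2.94 ± 0.25 in non-ablated mice. In ablated lesions 2 of 10 genes of this list rose and 1 fell, and in non-ablated lesions 1 rose and 2 fell. In ablated lesions 1 rose without lesion_ablated 10, lesion_ablated 12 or lesion_ablated 14, and 2 fell without distal_ablated 9. In non-ablated lesions 1 fell without lesion_ablated 10, lesion_ablated 14, lesion_control 2, distal_control 1 or distal_control 5, and 0 rose and 1 fell without lesion_control 4 or lesion_control 6. The arterial ligand Efnb2 rose by 2.50 ± 0.47 in ablated mice. Among transporters beyond the members, the taurine carrier Slc6a6 rose by 1.85 ± 0.31 in ablated and by 2.49 ± 0.36 in non-ablated mice. The monocarboxylate carrier Slc16a1 fell by 0.69 ± 0.16 in ablated and fell by 0.76 ± 0.19 in non-ablated mice. Oligodendrocyte markers fell in the same libraries as given above, and their part in the Slc16a1 result was not tested. In that list 1 of 13 rose and 1 fell in ablated lesions, and 3 rose and 2 fell in non-ablated lesions. Without lesion_ablated 12 or distal_ablated 11, 2 fell in ablated lesions, and without distal_ablated 9, 2 rose there. In non-ablated lesions 1 rose without lesion_control 2 or lesion_control 6.

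Of 14 tested vascular ligands, 3 rose and 3 fell in ablated lesions, and 2 rose and 2 fell in non-ablated lesions. Apln, the apelin ligand of endothelial growth, fell by 1.92 ± 0.29 in ablated and fell by 1.48 ± 0.33 in non-ablated mice. Tgfb1, which drives matrix formation, rose by 2.93 ± 0.60 in ablated and 2.69 ± 0.69 in non-ablated mice. The Notch ligand Jag1 rose by 1.48 ± 0.36 in non-ablated mice. The number of ligands that fell in non-ablated lesions was 1 when any library but lesion_ablated 8, distal_ablated 7, distal_ablated 9 or distal_ablated 11 was left out, and 5 rose without distal_ablated 9. Of 14 further endothelial genes, 2 rose in ablated lesions, and 1 rose and 1 fell in non-ablated lesions. The cell motility gene Ecscr rose by 1.65 ± 0.30 in ablated mice and by 1.30 ± 0.35 in non-ablated mice; the second call was lost without distal_control 1 (adjusted p = 0.0522) or lesion_control 6 (0.0545). In ablated lesions 1 gene of that list rose when any library but lesion_ablated 10, lesion_ablated 12, distal_ablated 7 or distal_control 5 was left out. In non-ablated lesions 0 fell without lesion_control 2, lesion_control 4, distal_control 3 or distal_control 5, and 2 fell without distal_ablated 9.

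Ablation was first read within lesions. No member was called by limma there, where 0.032% of all tested genes were called higher, 0.262% lower and 0.294% either way; edgeR and DESeq2 on the recovered reads called none either, and 5 members had an unadjusted p under 0.05. These 5 were higher in ablated lesions: Mfsd2a by 0.88 ± 0.30 (adjusted p = 0.386), Itm2a by 0.90 ± 0.34 (0.477), Rgs5 by 0.82 ± 0.30 (0.467), Notch3 by 0.94 ± 0.40 (0.608) and Higd1b by 2.10 ± 0.87 (0.579). The share of all genes at that unadjusted limit is not given, so the genes are named for their values alone. With array weights, which give noisier libraries less say, 5 members passed: Slco1a4 (adjusted p = 0.00398), Itm2a (0.0178), Mfsd2a (0.0194), Rgs5 (0.0385) and Cldn5 (0.0438). The shares of all genes above are not from this setting. Its own share is not given here, so the number 5 is not read as a result about the members.

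In direction, 27 of the 34 members were higher and 7 lower in ablated than in non-ablated lesions. Their median difference was 0.41, with 0.01 over all genes. It was 0.25 without lesion_control 2. In 9 members every ablated lesion was above every non-ablated lesion, where 7.62% of all genes showed this; it was below in none, where 8.36% of all genes showed that. The 9 are Esam, Tek, Cldn5, Slc2a1, Mfsd2a, Itm2a, Notch3, Anpep and Myh11. The differences of Slc2a1 and Cldn5 were 0.40 (95% interval -0.02 to 0.81) and 0.83 (-0.10 to 1.76), and that of Mfsd2a was 0.88 (0.23 to 1.53) before any adjustment. For Pecam1 and Cdh5 they were 0.32 (-0.59 to 1.23) and -0.02 (-1.01 to 0.97). Microglia markers differed between the same libraries, with a summed count of 27036 to 70288 in ablated and 112332 to 141639 in non-ablated lesions. Of 7 tested microglia markers, 4 were lower in ablated lesions. P2ry12 is listed at 0 in all libraries and adds nothing to the sum, and why it is at 0 was not tested. The medians of the neural marker lists were also above 0 in this comparison, and no marker of them was called. All 6 astrocyte markers were positive, with a median of 0.50 and a summed count of 70997 to 120757 in ablated and 53375 to 70856 in non-ablated lesions. All 6 oligodendrocyte markers were positive, with a median of 0.59 and the summed counts given above. All 6 neuron markers were positive, with a median of 0.95 and a summed count of 2381 to 15753 in ablated and 1387 to 3382 in non-ablated lesions. The part of these lists in the vascular values was not tested.

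In distal tissue no member was called either, where 0.0384% of all tested genes were called higher, 0.326% lower and 0.365% either way, and edgeR and DESeq2 also called none. At an unadjusted p under 0.05 there were 4 members: Slco1a4 (1.06 ± 0.42, adjusted p = 0.417) and Kdr (2.10 ± 0.74, 0.344) were higher and Emcn (-0.76 ± 0.32, 0.473) and Eng (-1.11 ± 0.39, 0.333) lower in ablated tissue. Again the share of all genes at that unadjusted limit is not given. Slco1a4 was above in every ablated library, where 2.39% of all genes showed this. Emcn had 363, 371, 204 and 281 normalized counts in ablated distal tissue, against 393, 454 and 705 in non-ablated distal tissue. Eng had 420.1, 271, 407 and 484 in ablated and 554, 740.4 and 1429 in non-ablated distal tissue. Both were below in every ablated library, where 3.1% of all genes showed this. With both distal_control 5 and distal_ablated 9 left out, the differences were 0.62 for Slco1a4, 0.84 for Kdr, -0.62 for Emcn and -0.55 for Eng. Over the members 11 were higher and 23 lower, with a median of -0.20 and 0.01 over all genes. This direction rested on single libraries. The median was -0.44 without distal_control 1, -0.04 without distal_ablated 9 and -0.02 without distal_control 5. When distal_control 5 and distal_ablated 9 were both left out, 21 members were higher and 13 lower, with a median of 0.26. By role the median was then 0.23 for barrier (-0.18 with all libraries), 0.18 for pericyte (-0.01), 1.29 for contractile (-0.20) and -0.15 for surface genes (-0.65). For Mfsd2a the difference was 0.01 (95% interval -0.64 to 0.66) and for Slc2a1 it was -0.09 (-0.50 to 0.33).

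Of the 121 tested pathway genes, none was called between ablated and non-ablated lesions and 1 in distal tissue. Without distal_control 5 and distal_ablated 9 together, 2 were called lower between lesions, and 1 higher and 1 lower in distal tissue. That gene, F11r, had 57.0, 125, 159.7 and 163 normalized counts in ablated distal tissue, against 1161, 928 and 444 in non-ablated distal tissue. All ablated values were lower, with a difference of -2.73 ± 0.46 (adjusted p = 0.0261). The call was lost without distal_control 3 (adjusted p = 0.130), lesion_control 2 (0.0540) or lesion_control 4 (0.0507), and with the spread of these groups alone (0.642). In lesions F11r had 246, 824, 564 and 697 in ablated mice and 1654, 1514 and 1821 in non-ablated mice. Leukocytes also express F11r.

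**Figure D5:**
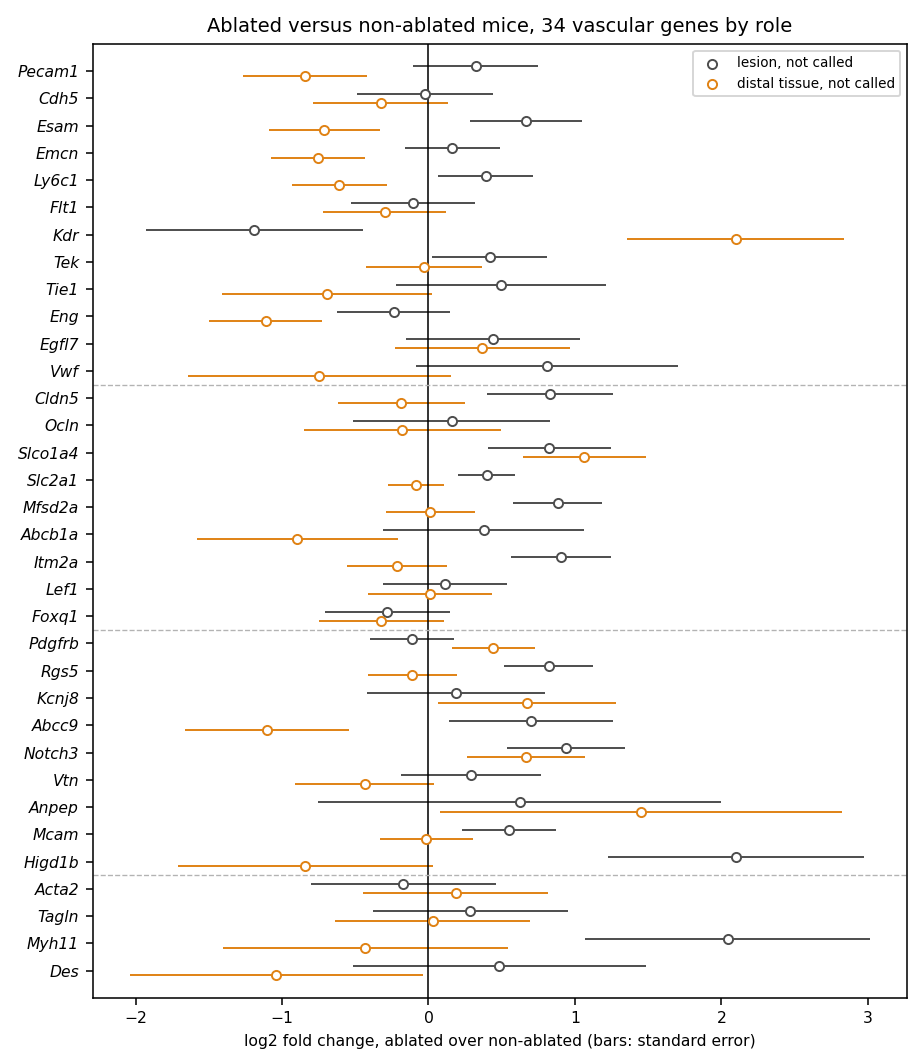
Ablated minus non-ablated log2 difference (± SE) of the 34 genes by role, in lesions and in distal tissue. No member passed the threshold in either tissue; 27 differences are positive in lesions and 11 in distal tissue.

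Whether the lesion change itself differed by genotype was tested as an interaction. No member passed, where 0.0128% of all tested genes did, and edgeR and DESeq2 on the recovered reads called none. At an unadjusted p under 0.05 there were 7 members, again without a share of all genes at that limit. Esam (1.38 ± 0.54), Ly6c1 (1.00 ± 0.46), Itm2a (1.12 ± 0.48), Rgs5 (0.93 ± 0.43), Abcc9 (1.80 ± 0.79) and Higd1b (2.94 ± 1.23) were less negative in ablated mice, with adjusted p = 0.824 to 0.872, and Kdr was -3.29 ± 1.05 (unadjusted p = 0.00709, adjusted p = 0.745). Over the 34, 28 interactions were positive and 6 negative, with a median of 0.64 and 0.04 over all genes. With both distal_control 5 and distal_ablated 9 left out, 22 were positive and 12 negative, with a median of 0.26. By role the median was then 0.42 for surface (0.90 with all libraries), 0.53 for barrier (0.48), 0.15 for pericyte (0.56) and -0.56 for contractile genes (0.89). In that setting Kdr was at -2.03, Esam at 0.83, Ly6c1 at 0.53, Itm2a at 0.55, Rgs5 at 0.64, Abcc9 at 1.89 and Higd1b at 2.94. Markers of neural cells leaned the same way, with a median interaction of 0.52 for astrocyte markers (5 of 6 positive), 0.39 for oligodendrocyte markers (6 of 6) and 0.62 for neuron markers (4 of 6). Microglia markers had -1.40 (1 of 7 positive). The part of these lists was not tested. The 9 members called in non-ablated lesions alone and Des in ablated lesions alone are therefore not shown to respond differently. For Mfsd2a the interaction was 0.87 (95% interval -0.05 to 1.79), for Slco1a4 -0.24 (-1.52 to 1.04) with all libraries and 0.20 without both libraries, and for Slc2a1 0.48 (-0.10 to 1.07).

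The genes most like Pecam1 over the 14 libraries, by Pearson's r of log2(normalized count + 1), were Fam210b (0.88), She (0.87), Rbpjl (0.86), Gm13031 (0.84) and Ankra2 (0.83). Those most like Pdgfrb were Tnfaip1 (0.92), Uhrf1bp1l (0.91), Klf6 (0.90), Ecm1 (0.89) and Ccnb1 (0.89). These are descriptions over libraries that share the lesion contrast.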

How the data were processed

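The authors deposited 1 table of normalized counts, a signal in the sense of read counts divided by DESeq2 size factors, for 14 libraries of pooled, laser-microdissected tissue. Per the labels' protocols, RNA was amplified by multiple displacement amplification before sequencing. Tools listed in the submitters' processing notes are BWA 0.7.17.1, bcl2fastq and DESeq2, with build mm10. Which program counted reads, whether by strand, and on which gene models, is not stated. Whole reads, which came out whole within 0.01 for 100% of values, were recovered from the size factor steps.

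The main test was limma 3.58.1 (R 4.3.3) with a fitted trend on log2(normalized count + 1), 4 group means, 10 residual degrees of freedom and Benjamini-Hochberg adjustment. The count test was not the main one because the deposited values are normalized. Alternatives were edgeR 4.0.16 and DESeq2 1.42.0 on the recovered reads, other scalings, pseudocounts, filters and weights, the groups compared alone, a replicate block, and each library left out; leaving out distal_control 5 and distal_ablated 9 together was added after seeing the data. Depth was 23601763 to 30844575 reads, and a count of 0 allows up to 3 reads. Pools are the replicates; where pools share handling, p-values measure the spread between these pools alone. The 34 members, the 10 pathway lists and the 7 marker lists (fibroblast, microglia, red blood cell, astrocyte, oligodendrocyte, neuron, leptomeninges) were chosen with earlier results of these data known. All members are named, and of each pathway list at most 3 called genes with the smallest p per comparison. Of 24116 gene IDs, 24061 matched RefSeq. The test was also run on simulated counts with the same dispersion for every gene and no outlying library. That run does not cover libraries such as distal_control 5.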

Additional observations from a re-analysis of the deposited data

Results flagged for a closer look

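In groups of 4 libraries, 68 sets of member values were searched by Dixon's test for a library far from the other 3. The search used normalized counts without the log, and 6 were found. A flag on this scale need not hold on the log2 scale of the tests, which was not searched. Chance gives about 1 in 20 for separate sets of normally spread values. The sets here share their libraries, so that rate does not apply to the count of 6. Of these, 4 came from distal_ablated 9. There Slco1a4, the organic anion transporter, had 22180.216 normalized counts, where the other ablated distal libraries had 5190.03 to 6832. The VEGF receptor Kdr had 1981.301 (others 366 to 573), the angiopoietin receptor Tek 282.327 (others 102 to 131) and its partner Tie1 375.879 (others 47.5 to 81.9). In the same library Vwf had 60.1, Cdh5 124 and Abcb1a 46.8, the lowest of their group, so endothelial genes did not all stand on 1 side.

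In ablated lesions, the pericyte matrix gene Vtn had 1939.703 in lesion_ablated 12 (others 824 to 988). The smooth muscle gene Tagln had 4941.598 in lesion_ablated 8 (others 1807 to 2247). Why these libraries differ was not tested.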

How the results depend on the processing

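Over 25 other settings no result turned its direction past the threshold. With array weights 5 members passed between ablated and non-ablated lesions. The share of all genes called with these weights is not given, and the cause was not tested. Leaving out 1 library at a time gave 6 to 9 members called in ablated and 8 to 15 in non-ablated lesions, and 0 to 0 in the 3 other comparisons. The number of all genes called was 3653 to 4919 in ablated and 3053 to 5358 in non-ablated lesions, 5 to 107 between lesions, 11 to 145 between distal tissues and 0 to 2 for the interaction. The groups share no replicate numbers. Consecutive title numbers, taken as lesion and distal pairs, had correlations of deviations of -0.10 to 0.21, over 0.1 in 4 of 7 pairs, and 5 of 7 lesion libraries correlated best with their own number, a hint from the data and not from the design. As not every pair was over 0.1, the block stayed an alternative. With this replicate block 9 members were called in ablated mice, where Cdh5 (adjusted p = 0.0481) and Notch3 (0.0351) were gained, and 14 in non-ablated mice, where Kcnj8 was lost (0.0518). The median of all genes shifted by -0.14 (edgeR) and -0.12 (DESeq2) in ablated and by -0.15 and -0.10 in non-ablated lesions, so these counts read more genes as lower. Groups of 3 or 4 pools limit the precision, and low genes such as Higd1b and Des rest on few reads.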
